A study of Mus musculus with 2 samples.

Results

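The genes described here are 10 endothelial identity genes, Pecam1, Cdh5, Emcn, Kdr, Flt1, Tie1, Tek, Vwf, Egfl7 and Eng, a set widely used to recognise blood vessel cells. They were picked by symbol from a table of 24091 mouse genes, and all 10 were found. The question put to them was whether the share of blood vessel RNA differed between an irradiated and a sham-irradiated preparation of fat cells.

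Each condition was represented by 1 RNA sequencing library from C57BL/6 mice, without transgenes or added alleles in the labels. Both libraries were labelled as primary adipocytes from gonadal fat, taken 2 months after the radiation or sham procedure, freed with collagenase, collected from the floating layer and cultured for 3 days. The irradiated mice had received pelvic radiation, for which the labels give 7.5 Gy and 5 days with no word on whether that dose is a daily or a summed one. Both titles also name PBS, which is not explained, and the age, number and sex of the mice behind each library are not given. With 1 library per condition there was no replicate spread and no test between conditions, and every difference below is a difference between these libraries. The sham-irradiated library, called the sham library from here on, held 30577000 fragments and the irradiated library 34996000, as recovered from the deposited values.

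The inner surface of every blood vessel is a single sheet of endothelial cells, joined by specialised adherens junctions and kept alive by growth factor signals from the surrounding tissue. Vascular endothelial growth factors act through Kdr and Flt1, while angiopoietins act through Tek with its partner Tie1. Fat is densely supplied with capillaries, which deliver fatty acids to adipocytes, so endothelial cells are a regular part of digested fat pads.

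The labelled cell type was compared with its markers first. Adiponectin (Adipoq), the adipocyte hormone, was at 0.133 FPKM, fragments scaled by listed gene length and library depth, in the sham library and 0.232 in the irradiated library. Leptin (Lep) had 0 fragments in the sham library and 2 in the irradiated library. Defining adipocyte markers were thus near 0 in both libraries, against their label. Of 12 adipocyte genes only 4 reached the level at which genes were kept for comparison, 1 FPKM in at least 1 library, and none of these 4 had a counting interval that left out 0. The most abundant was the fatty acid carrier Fabp4, at 96.9 FPKM in both libraries, and the list summed to 123 FPKM in the sham and 125 in the irradiated library. Also kept were the lipase Pnpla2 at 5.11 and 5.76 FPKM and the transcription factors Cebpa at 13.4 and 14.4 and Pparg at 4.59 and 4.69. Over all 12 genes, kept or not, 11 were higher in the irradiated library and 0 were lower. Of all kept genes 53.5% were higher, and for genes not kept that share was not computed. Among the adipocyte genes not kept, the lipid droplet proteins Plin1 and Plin4 had intervals above 0. Plin1 had 26 fragments in the sham and 56 in the irradiated library (interval 0.22 to 1.64), and Plin4 had 32 and 70 (0.31 to 1.59). Most genes not kept rested on few fragments, such as 5 and 10 for Adipoq, so their direction is given as a count only, and the kept genes had a median difference of 0.065. Adipoq, Lep, Pparg, Plin1 and Plin4 are named here after their values were seen.

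All 10 endothelial genes were detected well above the floor in both libraries and all were kept. Their summed level was 89.8 FPKM in the sham library and 96.8 FPKM in the irradiated library, a ratio of 1.08. As a share of fragments on genes, the members took 0.0435% (exact 95% binomial interval 0.0427 to 0.0443) in the sham library and 0.0472% (0.0465 to 0.0480) in the irradiated library. The share of these 10 genes was therefore slightly higher in the irradiated library, with counting intervals that stood apart. Among the other endothelial lists described below, the fat capillary share was lower, 0.00305% in the sham and 0.00233% in the irradiated library. The tip cell share was also lower, 0.0112% and 0.00966%, and for both lists the intervals stood apart. The transcription factor intervals overlapped, and the surface and junction, signalling, arterial, venous and activated, and lymphatic shares were higher. Some of these directions rested on 1 gene. Without Efnb2 the arterial genes summed to 10.4 FPKM in the sham and 9.88 FPKM in the irradiated library. Without Apln the tip cell genes summed to 7.79 and 11.8 FPKM, and Pdpn made nearly the whole lymphatic sum. A different number of cells of a type and a different amount of RNA per cell cannot be told apart in such libraries. All intervals given here treat each fragment as independent, which copies made by PCR are not, so the intervals can be too narrow. They cover counting error only and leave out variation between mice and cultures.

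Differences are given as irradiated minus sham-irradiated on the log2(FPKM + 0.1) scale, and the interval of a gene is the exact 95% binomial interval of its fragment ratio on log2. Of the 10 members, 9 were higher and 1, Cdh5, was lower in the irradiated library, beside 53.5% of the 11253 kept genes that were higher. The interval lay above 0 for 5 members, Emcn, Kdr, Tie1, Pecam1 and Eng, beside 23.8% of kept genes. It lay below 0 for 0 members, beside 17.4% of kept genes. Among the 7676 kept genes with fragment numbers in the members' range, 282 to 5066, these shares were 23.2% above and 16.7% below. The members thus leaned upward more often than kept genes did, by small amounts. The median member difference was 0.165, beside 0.02 for all kept genes, whose quartiles were -0.08 and 0.14. Above the upper quartile lay 6 members and inside the quartiles lay 4. No member reached a difference of 1 (2-fold) in either direction, a size reached by 1.16% of kept genes, 131 in number.

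**Figure D1:**
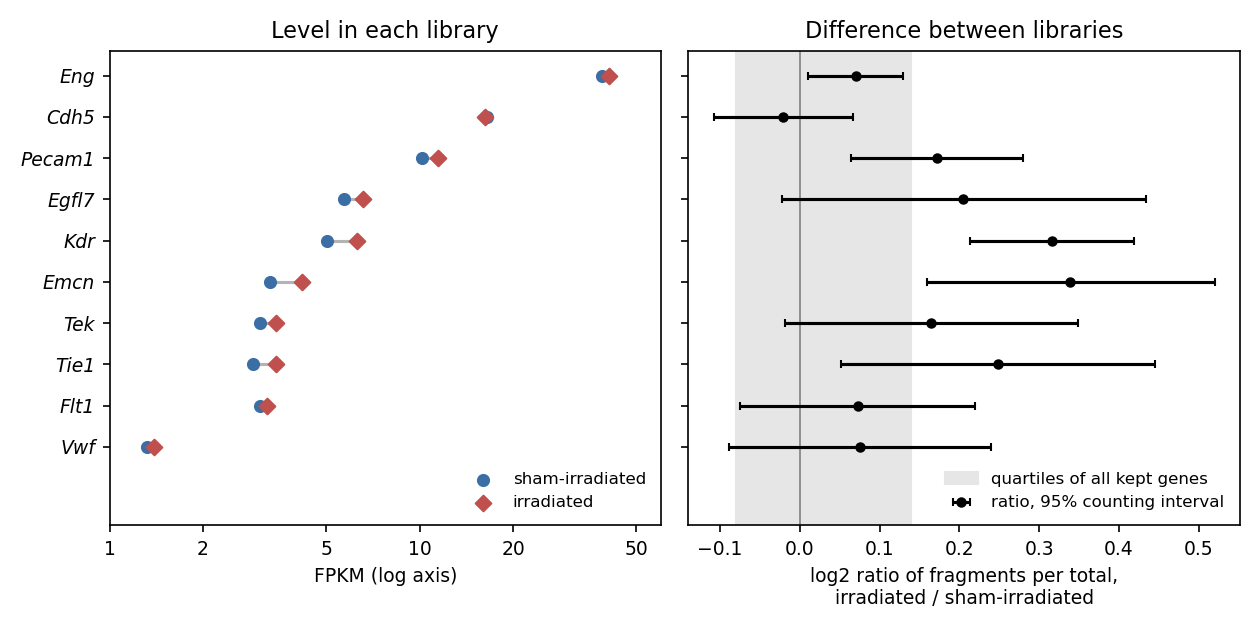
Levels of the 10 endothelial genes in FPKM on a log axis (left; blue circles sham-irradiated, red diamonds irradiated, 1 library each) and the log2 ratio of their fragments per library total, irradiated over sham-irradiated, with exact 95% counting intervals (right). The grey band spans the quartiles of the differences in log2(FPKM + 0.1) of all kept genes, -0.08 to 0.14; 5 of 10 intervals lie above 0 and only Cdh5 has a ratio below 0.

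The receptors of vascular endothelial growth factors were found at moderate levels in both libraries. Kdr (chr5:75933270-75978428, minus strand), the main signalling receptor for Vegfa, was at 5.03 FPKM from 1313 fragments in the sham library and 6.26 FPKM from 1870 fragments in the irradiated library. Its difference was 0.31, with an interval of 0.21 to 0.42. Flt1 (chr5:147562196-147725988, minus strand), which binds Vegfa tightly but signals weakly and limits Kdr, was at 3.06 and 3.22 FPKM from 693 and 834 fragments. Its difference was 0.07 and its interval of -0.07 to 0.22 included 0, so no difference was detectable at this depth. The intervals of Kdr and Flt1 overlapped slightly, and the difference between these receptors was not tested. The level of Kdr per level of Flt1 was 1.64 in the sham and 1.95 in the irradiated library. Flt1 also makes a soluble form without the membrane anchor, and values per gene do not separate it from the receptor.

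The angiopoietin receptors stood at close levels. Tek (chr4:94739289-94874976, plus strand), the receptor that binds angiopoietins, was at 3.06 FPKM in the sham and 3.43 FPKM in the irradiated library, from 438 and 562 fragments. Its difference of 0.16 had an interval of -0.02 to 0.35. Tie1 (chr4:118471191-118489849, minus strand), a partner of Tek with no ligand of comparable affinity known, was at 2.89 and 3.43 FPKM from 373 and 507 fragments. Its difference of 0.24 had an interval of 0.05 to 0.44, above 0. These intervals overlapped over most of their width, and the difference between the receptors was not tested.

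Among the junction and surface genes, Cdh5 was the exception to the upward lean. Cdh5 (chr8:104101625-104144502, plus strand) encodes the cadherin of endothelial adherens junctions and was at 16.5 FPKM in the sham and 16.2 FPKM in the irradiated library, from 2001 and 2258 fragments. Its difference was -0.02 with an interval of -0.11 to 0.07, narrower than that of any member but Eng. Pecam1 (chr11:106654213-106750628, minus strand), an adhesion molecule of endothelial contacts also carried by platelets and leukocytes, was at 10.2 and 11.5 FPKM from 1246 and 1606 fragments. Its difference was 0.17, with an interval of 0.06 to 0.28. Emcn (chr3:137341078-137431069, plus strand), a sialomucin of capillary and venous endothelium, was at 3.29 and 4.16 FPKM from 429 and 621 fragments. It had the largest difference of the 10 members, 0.33, with an interval of 0.16 to 0.52. On log2(FPKM + 1) Emcn was at 0.267, just below Kdr at 0.268. Per level of Cdh5, Pecam1 was at 0.618 in the sham and 0.705 in the irradiated library, and Emcn at 0.200 and 0.256. The interval of Emcn lay wholly above that of Cdh5 and that of Pecam1 overlapped it, and in the absence of replicates the usual spread of these proportions is unknown.

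Eng (chr2:32646595-32682669, plus strand), a co-receptor for bone morphogenetic proteins and transforming growth factor beta that stromal cells and macrophages also carry, had the highest level of the members. It was at 38.8 FPKM from 4216 fragments in the sham library and 40.7 FPKM from 5066 fragments in the irradiated library. Its difference was 0.07 and its interval was 0.01 to 0.13. That interval included 0 once differences were centred on the median of all kept genes (-0.009 to 0.11) or scaled without the 100 most abundant genes (-0.005 to 0.11), which left 4 members above 0. Eng is therefore no firm member of the 5. Eng alone made 43.2% of the members' summed level in the sham and 42.0% in the irradiated library, and the sum without it was 51.0 and 56.2 FPKM. Leaving out Eng and Pecam1, which other cells in fat also express and which are both among the 5 members above 0, left 3 of 8 members with an interval above 0.

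The secreted members were low to moderate. Vwf (chr6:125532587-125686679, plus strand), the large glycoprotein that tethers platelets to injured vessels, was at 1.32 FPKM in the sham and 1.39 FPKM in the irradiated library, from 558 and 673 fragments. Its difference of 0.07, or 0.04 on log2(FPKM + 1), had an interval of -0.09 to 0.24. Vwf had the lowest level of the members, although, at a listed gene length of 13.8 kb, it had more fragments than Egfl7, Emcn, Tek or Tie1. Egfl7 (chr2:26581056-26592682, plus strand), a matrix-bound factor that guides vessel tube formation, was at 5.72 and 6.58 FPKM from 282 and 372 fragments. Its difference of 0.20 had an interval of -0.02 to 0.43. For both secreted genes no difference was detectable at this depth.

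In both libraries Eng, Cdh5, Pecam1, Egfl7, Kdr and Emcn led the order of levels and Vwf ended it. Between them Flt1 and Tek shared a value, 3.06 FPKM, in the sham library, and Tek and Tie1 shared another, 3.43 FPKM, in the irradiated library. Only 3 members in each library, Eng, Cdh5 and Pecam1, stood above the median kept gene, which was at 8.30 FPKM in the sham and 8.59 FPKM in the irradiated library. Among all 24091 genes, Eng lay at percentile 94.0 in the sham and 94.2 in the irradiated library, and Vwf at percentiles 56.2 and 56.0. The endothelial genes were thus mostly in the lower part of the kept range in both libraries.

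Positions are those of the deposited table, on build mm10, and each member was placed on the same strand in GENCODE vM21. Exons of Eng shared 61 bases with Fpgs on the opposite strand, which was at 7.57 FPKM in the sham and 6.82 FPKM in the irradiated library. Exons of Egfl7 shared 64 bases with Agpat2 on the opposite strand, at 6.49 and 8.01 FPKM. On its own strand Egfl7 shared 264 exon bases with the gene model Gm20532 and 73 with the microRNA gene Mir126a, and on the opposite strand 58 with Mir126b. The label names a stranded library kit, but whether counting used strand is not stated, so fragments from these stretches cannot be told apart. Fpgs, Agpat2, Gm20532, Mir126a and Mir126b are named because they overlap a member.

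The ligands of these receptors were mixed. Of 8 ligand genes 6 were kept, 3 higher and 3 lower, with a median difference of -0.02. The interval lay above 0 for 3 and below 0 for 1, beside 23.8% and 17.4% of all kept genes. Vegfa, the principal vascular growth factor, was at 38.8 FPKM in the sham and 40.7 FPKM in the irradiated library, a difference of 0.07 with an interval of 0.02 to 0.12 that included 0 after centring. To the deposited 2 decimals these values equal those of Eng, from other fragment numbers, 5168 and 6209. Pgf, a placental growth factor that binds Flt1, was at 1.83 FPKM from 94 fragments and 3.84 FPKM from 225 fragments. Its difference of 1.03 (interval 0.71 to 1.43) made it the only ligand past a difference of 1, but on log2(FPKM + 1) its difference was 0.77 and 0 ligands were past 1. Vegfb, a ligand of Flt1, was at 9.68 and 8.53 FPKM, a difference of -0.18 with an interval of -0.39 to 0.03. Angpt2, the angiopoietin that endothelial cells store and that can oppose Tek signalling, was at 6.05 and 9.55 FPKM, a difference of 0.65 (0.52 to 0.80). Angpt1, the activating ligand of Tek, was at 2.79 and 2.12 FPKM, a difference of -0.38 (-0.60 to -0.20). These angiopoietins thus differed in opposite directions, and the level of Angpt2 per level of Angpt1 was 2.17 in the sham and 4.50 in the irradiated library. Bmp10, a ligand that Eng binds, had 0 fragments in both libraries. A count of 0 allows up to 3 fragments, which for a 1 kb transcript is 0.0981 FPKM in the sham and 0.0857 FPKM in the irradiated library. Gdf2, another ligand that Eng binds, was not kept and had 11 fragments in the sham and 3 in the irradiated library (interval -4.55 to -0.15). Angpt1 and Gdf2 were named after their values were seen.

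All 7 receptor partners were kept, 6 higher and 1 lower, with a median difference of 0.12. The interval lay above 0 for 4 and below 0 for 1, beside 23.8% and 17.4% of all kept genes. Acvrl1, the endothelial receptor kinase that signals with Eng, was at 9.03 FPKM in the sham and 11.5 FPKM in the irradiated library, a difference of 0.34 (interval 0.23 to 0.46). Bmpr2, the receptor that pairs with it, was at 27.6 and 23.3 FPKM, a difference of -0.24 (-0.28 to -0.20). Tgfbr2, a widely expressed receptor for transforming growth factor beta, was at 39.0 and 41.3 FPKM, a difference of 0.08 (0.03 to 0.13). The partners of Eng therefore did not differ in a common direction. The others above 0 were Nrp1, a co-receptor for Vegfa, at 0.12 and Tgfbr1 at 0.15, both named after their values were seen.

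Further endothelial surface and junction genes leaned the same way as the members. All 12 were kept, 8 higher and 4 lower, with a median difference of 0.245. Beside 23.8% of kept genes above 0 and 17.4% below, the interval lay above 0 for 6 of the 12 and below 0 for 0. Their summed level was 64.6 FPKM in the sham and 73.5 FPKM in the irradiated library. Cd93, an adhesion receptor of endothelial and myeloid cells and the most abundant, was at 16.5 and 20.7 FPKM, a difference of 0.33 (interval 0.27 to 0.40). Mmrn2, a matrix protein that binds Cd93, had the largest difference of the list, 0.55 (0.33 to 0.81), at 1.91 and 2.85 FPKM. On log2(FPKM + 1) it was at 0.40, below Esam at 0.44, a gene of the list named after its values were seen. Ecscr, a surface regulator of endothelial migration, had 592 and 636 fragments, a difference of -0.09 (-0.26 to 0.07).

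Endothelial transcription factors did not show that lean. Of 10 factors 8 were kept, 4 higher and 4 lower, and their median difference was 0.02, equal to that of all kept genes. Beside 23.8% of kept genes above 0 and 17.4% below, 1 factor had an interval above 0 and 1 below, so these counts did not stand out. The interval lay above 0 only for Fli1, an ETS family factor, at 3.38 FPKM in the sham and 4.56 FPKM in the irradiated library, a difference of 0.42 (0.23 to 0.64). It lay below 0 only for Sox7, a factor of vessel development named after its values were seen, at 2.71 and 2.23 FPKM, a difference of -0.27 (-0.53 to -0.02). Gata2, a factor of endothelial and blood cells and the most abundant here, was at 7.06 and 6.53 FPKM, a difference of -0.11 (-0.26 to 0.04). Sox18, which acts in arterial and lymphatic vessels, was at 4.13 and 4.69 FPKM, a difference of 0.18 (-0.09 to 0.45). The list summed to 25.9 FPKM in the sham and 27.0 FPKM in the irradiated library.

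Endothelial signalling genes lay between these lists. Of 15 genes 10 were kept, 6 higher and 4 lower, with a median difference of 0.07 and a summed level over all 15 of 47.5 FPKM in the sham and 50.1 FPKM in the irradiated library. The interval lay above 0 for 2, Acvrl1 and the Notch receptor Notch4, and below 0 for 1, S1pr1. Among all kept genes it lay above 0 for 23.8% and below 0 for 17.4%, so these counts did not stand out. S1pr1, a lipid receptor that steadies vessel walls, was the most abundant at 14.2 and 13.2 FPKM, a difference of -0.11 whose interval of -0.22 to -0.0009 left out 0 by less than the 0.01 that rounding of the deposited values can move a difference. Notch4, named after its values were seen, was at 2.93 and 3.26 FPKM, a difference of 0.15 (0.003 to 0.31), also within that rounding and with an interval that included 0 after centring or scaling.

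Genes that mark kinds of vessels differed in direction from list to list. All 7 fat capillary genes were lower in the irradiated library, with a summed level of 22.8 FPKM in the sham and 16.9 FPKM in the irradiated library. For genes not kept, the share that was lower was not computed. Only 3 of the 7 were kept, at a median difference of -0.27. Among these the interval lay below 0 for Rgcc alone, beside 17.4% of kept genes. Rgcc, a cell cycle regulator abundant in capillary endothelium, was at 13.3 FPKM from 369 fragments and 9.15 FPKM from 291 fragments, a difference of -0.53 (-0.76 to -0.31). Gpihbp1, which carries lipoprotein lipase to the capillary lumen, was at 5.56 and 4.59 FPKM, a difference of -0.27 (-0.64 to 0.08). Btnl9, a surface protein gene not kept and named after its values were seen, had 35 and 23 fragments, with an interval of -1.63 to -0.0006. The kept capillary genes were thus lower where most members were higher, on 3 genes and with most of the sum in Rgcc.

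Of 6 arterial genes 5 were kept, 3 higher and 2 lower, with a median difference of 0.11 and a summed level of 33.7 FPKM in the sham and 39.4 FPKM in the irradiated library. Without its most abundant gene, Efnb2, the sum was 10.4 and 9.88 FPKM, lower in the irradiated library. Efnb2, the arterial ephrin, was at 23.3 and 29.6 FPKM, a difference of 0.34 (interval 0.27 to 0.41). Its level was above that of Cdh5 in both libraries, and which cells made it was not tested. Gja5, an arterial gap junction protein, was at 2.15 and 1.26 FPKM, a difference of -0.73 (-1.09 to -0.46), or -0.48 on log2(FPKM + 1). Arterial genes therefore included intervals on both sides of 0. Hey1, a target of Notch, was at 3.36 and 3.63 FPKM, a difference of 0.11 (-0.14 to 0.37). Sema3g, named after its values were seen, was the other gene below 0, at -0.34 (-0.65 to -0.07), or -0.23 on log2(FPKM + 1).

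Of 8 venous and activated genes 4 were kept, with 1 higher, 1 lower and 2 equal, a median difference of 0.00, and a summed level of 98.8 FPKM in the sham and 103 FPKM in the irradiated library. Vcam1, which binds leukocytes on activated vessels and is also made by stromal and mesothelial cells, was at 53.7 FPKM in both libraries. Ephb4, the venous receptor for Efnb2, was at 18.7 FPKM in both. Icam1, another leukocyte adhesion molecule made by many cell types, was at 8.72 and 12.9 FPKM, a difference of 0.56 (interval 0.46 to 0.67). The selectins, which are more restricted to activated endothelium, were below the level for keeping. Sele had 22 fragments in the sham and 52 in the irradiated library, and Selp had 48 and 87, with intervals above 0 for both. Their differences of 0.81 and 0.57 were 0.28 and 0.25 on log2(FPKM + 1). The kept gene with an interval below 0 was Nr2f2, a factor of venous identity, at 16.5 and 15.6 FPKM, a difference of -0.08 whose interval of -0.16 to -0.0006 left out 0 by less than rounding. Sele, Selp and Nr2f2 were named after their values were seen.

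All 3 tip cell genes, which mark the leading cells of vessel sprouts, had intervals that left out 0, in both directions. Among all kept genes 23.8% had an interval above 0 and 17.4% below. Apln, a peptide that tip cells secrete, was at 22.8 FPKM in the sham and 14.4 FPKM in the irradiated library, a difference of -0.66 (-0.76 to -0.57). In the sham library its level was above that of Cdh5, 16.5 FPKM, and which cells made it was not tested. Esm1, a secreted proteoglycan named after its values were seen, was at 1.74 and 2.25 FPKM, a difference of 0.35 (0.01 to 0.72) with an interval that included 0 after centring or scaling. With Angpt2, already given among the ligands, their median difference was 0.35 and their summed level 30.6 and 26.2 FPKM, or 7.79 and 11.8 FPKM without Apln.

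**Figure D2:**
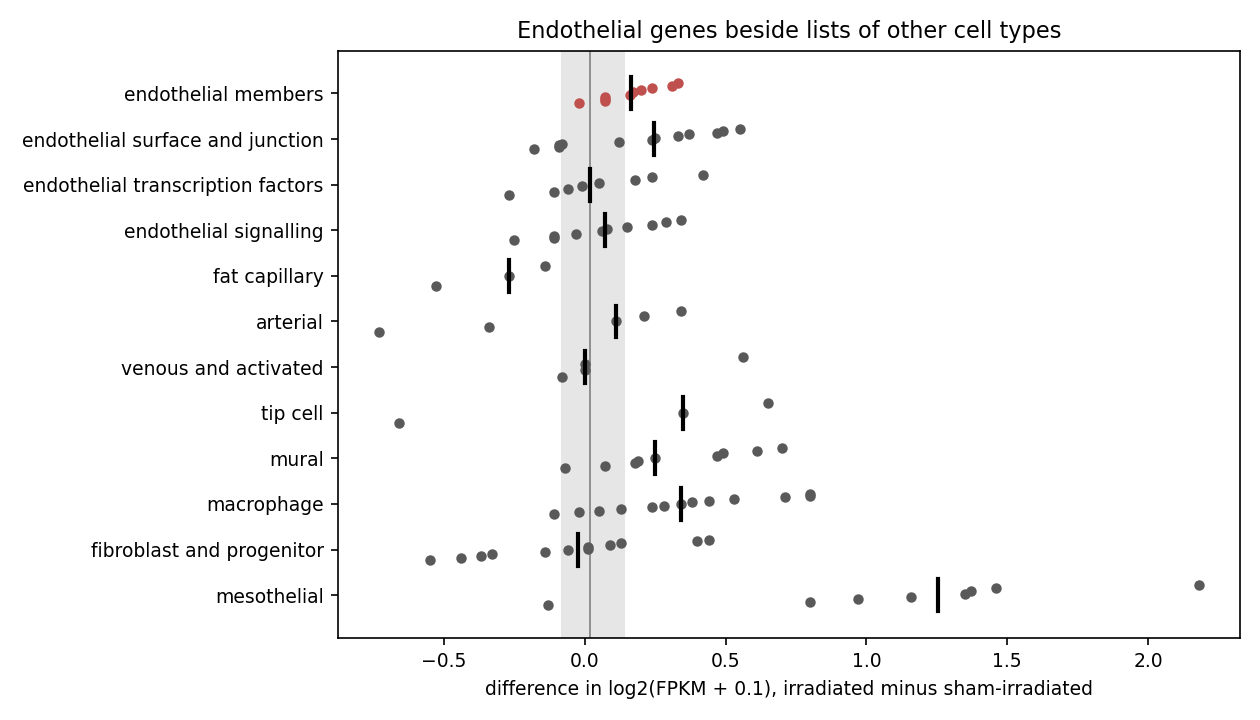
Differences in log2(FPKM + 0.1), irradiated minus sham-irradiated, of kept genes in the endothelial lists and in lists of 4 other cell types, with 1 point per gene (red for the 10 members) and a black bar at each list's median. The grey band and thin line mark the quartiles and the median of all kept genes; the members' median is 0.165 and that of fat capillary genes -0.27, while 4 of the 8 mesothelial genes were kept through the irradiated library alone.

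Lymphatic vessels share several of these genes. Of 7 lymphatic endothelial genes 6 were found, all but Ccl21a, and only Pdpn and Flt4 were kept. Pdpn, a mucin-like protein also made by fibroblasts and mesothelial cells, was at 345 FPKM in the sham and 413 FPKM in the irradiated library, a difference of 0.26 (interval 0.23 to 0.29), and made nearly the whole summed level of 347 and 415 FPKM. Flt4, a growth factor receptor of lymphatic and sprouting vessels, was at 1.54 and 1.65 FPKM, a difference of 0.10 (-0.13 to 0.34), or 0.07 on log2(FPKM + 1). The median difference of these kept genes was 0.18. The defining marker Lyve1 was near 0, with 7 fragments in the sham and 5 in the irradiated library, and the lymphatic regulator Prox1 had 31 and 56 (interval 0.0004 to 1.34, including 0 after centring or scaling). Lyve1 and Prox1 were named after their values were seen.

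Mural cells, which wrap capillaries and small vessels, were measured by 10 genes, of which 9 were kept, 8 higher and 1 lower, with a median difference of 0.25. The interval lay above 0 for 6 and below 0 for 1, beside 23.8% and 17.4% of all kept genes. The mural genes summed to 129 FPKM in the sham and 132 FPKM in the irradiated library, or 35.6 and 43.1 FPKM without Pdgfrb. Pdgfrb, the receptor that recruits mural cells and that fibroblasts also carry, was the most abundant at 93.6 and 89.2 FPKM, a difference of -0.07 (-0.10 to -0.04). Rgs5, a marker more restricted to pericytes, was at 10.6 and 12.6 FPKM, a difference of 0.25 (0.15 to 0.35). Cspg4, a pericyte proteoglycan, was at 0.795 and 1.35 FPKM, a difference of 0.70 (0.56 to 0.98) that was 0.39 on log2(FPKM + 1), and it was kept through the irradiated library alone. Without Cspg4, 7 of 8 mural genes were higher, 5 had an interval above 0 and the median difference was 0.22.

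Markers of other cells in fat also differed between the libraries. All 13 macrophage genes were kept, 11 higher and 2 lower, with a median difference of 0.34. Beside 23.8% of kept genes above 0 and 17.4% below, the interval lay above 0 for 9 of the 13 and below 0 for 1. They summed to 655 FPKM in the sham and 708 FPKM in the irradiated library, or 212 and 298 FPKM without the most abundant gene, the lysozyme Lyz2, which was at 443 and 410 FPKM. Cd68, a lysosomal protein, was at 59.2 and 96.9 FPKM, a difference of 0.71 (interval 0.64 to 0.79), and the complement genes C1qa and C1qc each differed by 0.80. All 8 mesothelial genes were kept, 7 higher and 1 lower, with a median difference of 1.255 and 5 past a difference of 1, Msln, Krt19, Upk3b, Krt8 and Krt18. On log2(FPKM + 1) the median was 0.82 and only Msln was past 1, with a difference of 1.29. Msln, Krt19, Upk3b and Krt18 were below 1 FPKM in the sham library and were kept through the irradiated library alone, so the filter itself favoured higher values there and neither the count nor the median is support for a difference. Of the genes at 1 FPKM or more in both libraries, Krt8 differed by 1.35 (interval 0.99 to 1.89) and Upk1b by 0.97 (0.79 to 1.18). Lrrn4 differed by 0.80 (0.66 to 0.97), and only Wt1 was lower. They summed to 34.5 and 49.5 FPKM. Their most abundant gene, the transcription factor Wt1, was at 20.4 and 18.7 FPKM, a difference of -0.13 (-0.22 to -0.04), while the surface protein Msln was at 0.520 and 2.71 FPKM, a difference of 2.18, and the uroplakin Upk1b was at 5.76 and 11.4 FPKM. Krt19, Upk3b, Krt8, Krt18 and Lrrn4 were named after their values were seen.

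All 12 fibroblast and progenitor genes were kept, 6 higher and 6 lower, with a median difference of -0.025. The interval lay above 0 for 3 and below 0 for 6, beside 23.8% and 17.4% of all kept genes. The protease Dpp4, at 0.886 and 1.24 FPKM and named after its values were seen, was kept through the irradiated library alone, and without it 5 of 11 were higher, 2 lay above 0 and the median was -0.06. The fibroblast genes were by far the most abundant of the lists, at a summed level of 3894 FPKM in the sham and 3185 FPKM in the irradiated library. Col1a1, a collagen chain, was at 1937 and 1428 FPKM, a difference of -0.44. Col3a1, another collagen chain, was at 873 and 694 FPKM, a difference of -0.33. Pi16, a marker of adventitial progenitors around vessels, was at 1.94 and 1.29 FPKM, a difference of -0.55 (interval -0.92 to -0.25), or -0.36 on log2(FPKM + 1). Genes of the macrophage, mesothelial, mural and fibroblast lists thus had intervals that left out 0 beside those of the endothelial members, and their part in the result was not tested.

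Blood cell genes were low in both libraries, apart from a pair of platelet chemokine genes. Of 7 platelet genes only Pf4 and Ppbp were kept, at 194 FPKM in the sham and 226 FPKM in the irradiated library for Pf4 and at 16.8 and 12.0 FPKM for Ppbp. Their differences were 0.22 (interval 0.16 to 0.28) and -0.48 (-0.67 to -0.30), with a median of -0.13, and the list summed to 211 and 238 FPKM, or 17.4 and 12.5 FPKM without Pf4. The other 5 platelet genes were not kept, and the platelet receptor genes Gp6 and Gp9 had 0 fragments in both libraries. Most platelet markers were thus below the level for keeping, and which cells made Pf4 and Ppbp was not tested. Of the 7 lymphocyte genes 0 were kept and all were lower in the irradiated library. No share of lower genes was computed for genes not kept. The lymphocyte genes summed to 1.98 FPKM in the sham and 0.847 FPKM in the irradiated library. Their most abundant gene, Cd79a of B cells, had 29 fragments in the sham and 8 in the irradiated library (interval -3.39 to -0.89), and Cd3d of T cells had 15 and 4 (-4.15 to -0.45). Of 6 red cell genes 4 were found and 0 were kept, with a summed level of 0.0349 and 0.136 FPKM, the most abundant being Hba-a2 with 0 and 3 fragments. Red cell markers were thus near 0. Cd79a, Cd3d and Hba-a2 were named after their values were seen.

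Sequence upstream of the members was compared for a motif that many endothelial promoters carry, the core bound by ETS family factors such as Fli1. RefSeq promoters of GRCm38.p6, each of 300 bases from 250 before to 50 after a gene start, matched 7 of the 10 members by symbol, with 9 windows in all, 3 of them for Egfl7. Cdh5, Pecam1 and Vwf were not matched. The letters AGGAAG, on either strand, were found in 6 of the 9 windows, beside 35.4% of all 32851 promoters. Those windows belonged to 5 of the 7 members, Egfl7, Eng, Emcn, Tie1 and Flt1, with Egfl7 counted when any of its 3 windows matched. The shorter GGAA, which lies inside AGGAAG, was in 9 of the 9 windows, beside 96.0% of all promoters. Among the growth factor and angiopoietin receptors, the windows of Flt1 and Tie1 held AGGAAG and those of Kdr and Tek did not. A match is a description of letters and not a bound site.

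The upstream parts of 2 windows are shown, for the member with the largest difference, Emcn (chr3:137340828-137341061, plus strand, 234 bases), and for the member with the highest level, Eng (chr2:32646345-32646594, plus strand, 250 bases). Both are written 5′ to 3′, stop before the annotated RNA begins, and carry AGGAAG or its reverse complement CTTCCT in capitals.
Emcn: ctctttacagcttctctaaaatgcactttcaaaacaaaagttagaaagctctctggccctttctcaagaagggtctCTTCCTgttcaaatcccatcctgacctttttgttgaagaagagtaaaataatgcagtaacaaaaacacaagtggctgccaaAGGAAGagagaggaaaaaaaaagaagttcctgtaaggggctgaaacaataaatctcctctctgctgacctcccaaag
Eng: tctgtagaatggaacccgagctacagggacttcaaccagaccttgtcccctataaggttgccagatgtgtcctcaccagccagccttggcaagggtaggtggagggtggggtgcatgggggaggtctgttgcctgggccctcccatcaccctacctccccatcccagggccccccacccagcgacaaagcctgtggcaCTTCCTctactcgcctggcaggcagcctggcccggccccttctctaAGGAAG
Each of these sequences held 1 match on each strand.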

How the data were processed

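The files held 1 table with 2 library columns. Per the labels, polyA RNA was sequenced after a stranded kit, and the submitters' processing notes name build mm10. For the aligner, the counter and the annotation, names were not given in the sources used here. The authors deposited log2(FPKM + 0.1) values to 2 decimals. FPKM was recovered by undoing the log2 step, and fragments as FPKM times listed gene length times the library total. That total was the one that made the fragments of low genes, 1 to 20 each, whole within 0.12, which held for 2570 of 2570 and 2518 of 2518 genes, and 86.8% and 86.9% of it lay on genes. Intervals were exact (Clopper-Pearson). Samples were grouped by their labels.

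Named genes were all members and, from each of 18 other lists, the 2 kept genes of highest mean FPKM, the kept gene with the largest difference and any marker with no fragment. Exceptions are stated. The members and lists were chosen with earlier results of these data known. The scripts, in Python 3.11.15 with SciPy 1.17.1, matplotlib 3.10.9, pandas 2.3.3 and numpy 2.4.6, were checked on simulated data. Other filters, pseudocounts, scalings and member lists were tried.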

Additional observations from a re-analysis of the deposited data

How the results depend on the processing

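No paired analysis was possible because only 1 library stood for each group, and none could be left out in turn. The median difference of the members stayed between 0.14, with log2(FPKM + 1), and 0.18, without Eng and Pecam1. The log2 ratio of the summed levels, 0.11 as reported, lay between 0.09 and 0.14 under the alternatives. The largest was without Eng, an alternative chosen after seeing the data, as was the background of genes with similar fragment numbers. The count of members with an interval above 0 was 3 of 5 members at FPKM of at least 5 and 3 of 8 without Eng and Pecam1, beside 5 of 10, since fewer members were counted. It was 4, with Eng no longer above 0, after centring on the median difference or scaling without the 100 most abundant genes, which shifted differences by -0.02. The count below 0 was 0 under the 5 alternatives run for it, and the count past the fold 0 under the 7 run for it, which included a difference of at least 0.5. Of 82 single genes, 9 lay outside their interval with log2(FPKM + 1), 2 (Col1a1 and Col3a1) with centring and the same 2 with scaling. No gene whose interval left out 0 turned direction. The mesothelial and ligand values on log2(FPKM + 1), and the mural and fibroblast values without a gene kept through 1 library alone, were added after seeing the data.

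The limit of these data is the number of libraries. The intervals for 282 to 5066 fragments per member are narrow, but they say nothing of the spread between mice, digestions or cultures. The intervals of Egfl7 and Tek reach up to 0.43 and 0.35, above the difference of Kdr. Values per gene do not separate isoforms, and the deposited 2 decimals limit the recovered FPKM.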
